A study of Mus musculus with 20 samples.

Results

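Rab GTPases are small membrane-bound switches that give each compartment of the vesicle traffic its identity. Exchange factors (GEFs) load them with GTP, GTPase-activating proteins (GAPs) end the signal, escort proteins and a geranylgeranyl transferase attach their lipid anchor, GDI proteins carry the GDP form through the cytosol, and effectors such as tethers and motor adaptors read the GTP form. In neurons they are known for synaptic vesicle release, axonal and dendritic cargo delivery, receptor recycling and degradation in lysosomes.

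All probes were taken whose single gene symbol in the platform annotation was Rab followed by a number and at most 1 letter. This gave 68 probes of 56 genes, out of 18218 probes of 16504 genes with 1 symbol. All 68 passed the filter on missing values, 53 genes had 1 probe, and Rab5a had 10, Rab12 had 3 and Rab36 had 2. The study put 20 two-colour Agilent arrays on mouse cerebral cortex, each with RNA of cocaine-exposed offspring in channel 1 and of saline-exposed offspring in channel 2. Swiss Webster dams were injected under the skin with 20 mg/kg cocaine or with saline, 2 times a day between embryonic days 8 and 18, and saline dams were pair-fed. The arrays form 4 groups of 5, namely adult occipital and adult frontal cortex on postnatal day 30, and fetal occipital and fetal frontal cerebral wall on embryonic day 18, 1 h after the last injection. Fetal channels pooled 2 fetuses, adult offspring were exposed only before birth, each slide within a region came from litters of its own, and sex is not given.

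Every value is a log2 ratio, likely cocaine over saline, after subtraction of the median of its array. The labels put cocaine in channel 1 throughout but do not state which channel is divided by which, and no dye swap is labelled, so a fixed dye difference may remain in each mean. The labels of fetal frontal replicate 1 name both dyes in channel 1, and of the fetal occipital arrays 2 share the number 1, here replicates 1 and 1b. Only ratios are at hand, so neither the level of any gene nor the tissue's marker levels could be checked, and in bulk tissue fewer cells of a type cannot be told apart from less RNA per cell. Position on the array explained from 2.72% to 45.9% of the variance of an array's ratios, most on fetal occipital replicate 1b. Group means are given with their SE from a limma model of all 20 arrays, and a probe passed at a Benjamini-Hochberg adjusted p under 0.05 over all 22567 probes tested.

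More Rab probes were higher than lower after cocaine in both adult regions and in the fetal frontal wall. In adult occipital cortex 26 of 68 Rab probes were higher, where 24.1% of all probes were, and 10 were lower, where 24.1% of all probes were. In adult frontal cortex 29 were higher and 10 lower, against 26.8% and 29.4% of all probes. In fetal occipital wall 6 were higher and 10 lower, against 10.5% and 14.2% of all probes. In fetal frontal wall 19 were higher and 8 lower, against 18.7% and 18.4% of all probes. The median Rab ratio was 0.47 in adult occipital, 0.64 in adult frontal, 0.05 in fetal occipital and 0.28 in fetal frontal cortex, where the median of all probes was 0.01, -0.04, -0.03 and -0.04. Array by array, the Rab median lay between 0.13 and 0.65 in adult occipital, 0.24 and 0.95 in adult frontal, -0.15 and 0.28 in fetal occipital and 0.11 and 0.54 in fetal frontal cortex. It was thus above 0 on every array of 3 groups and on both sides of 0 in the fetal occipital wall. With Rab5a left out, 24 of 58 probes were higher in each adult region, 6 in fetal occipital and 16 in fetal frontal cortex.

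**Figure D1:**
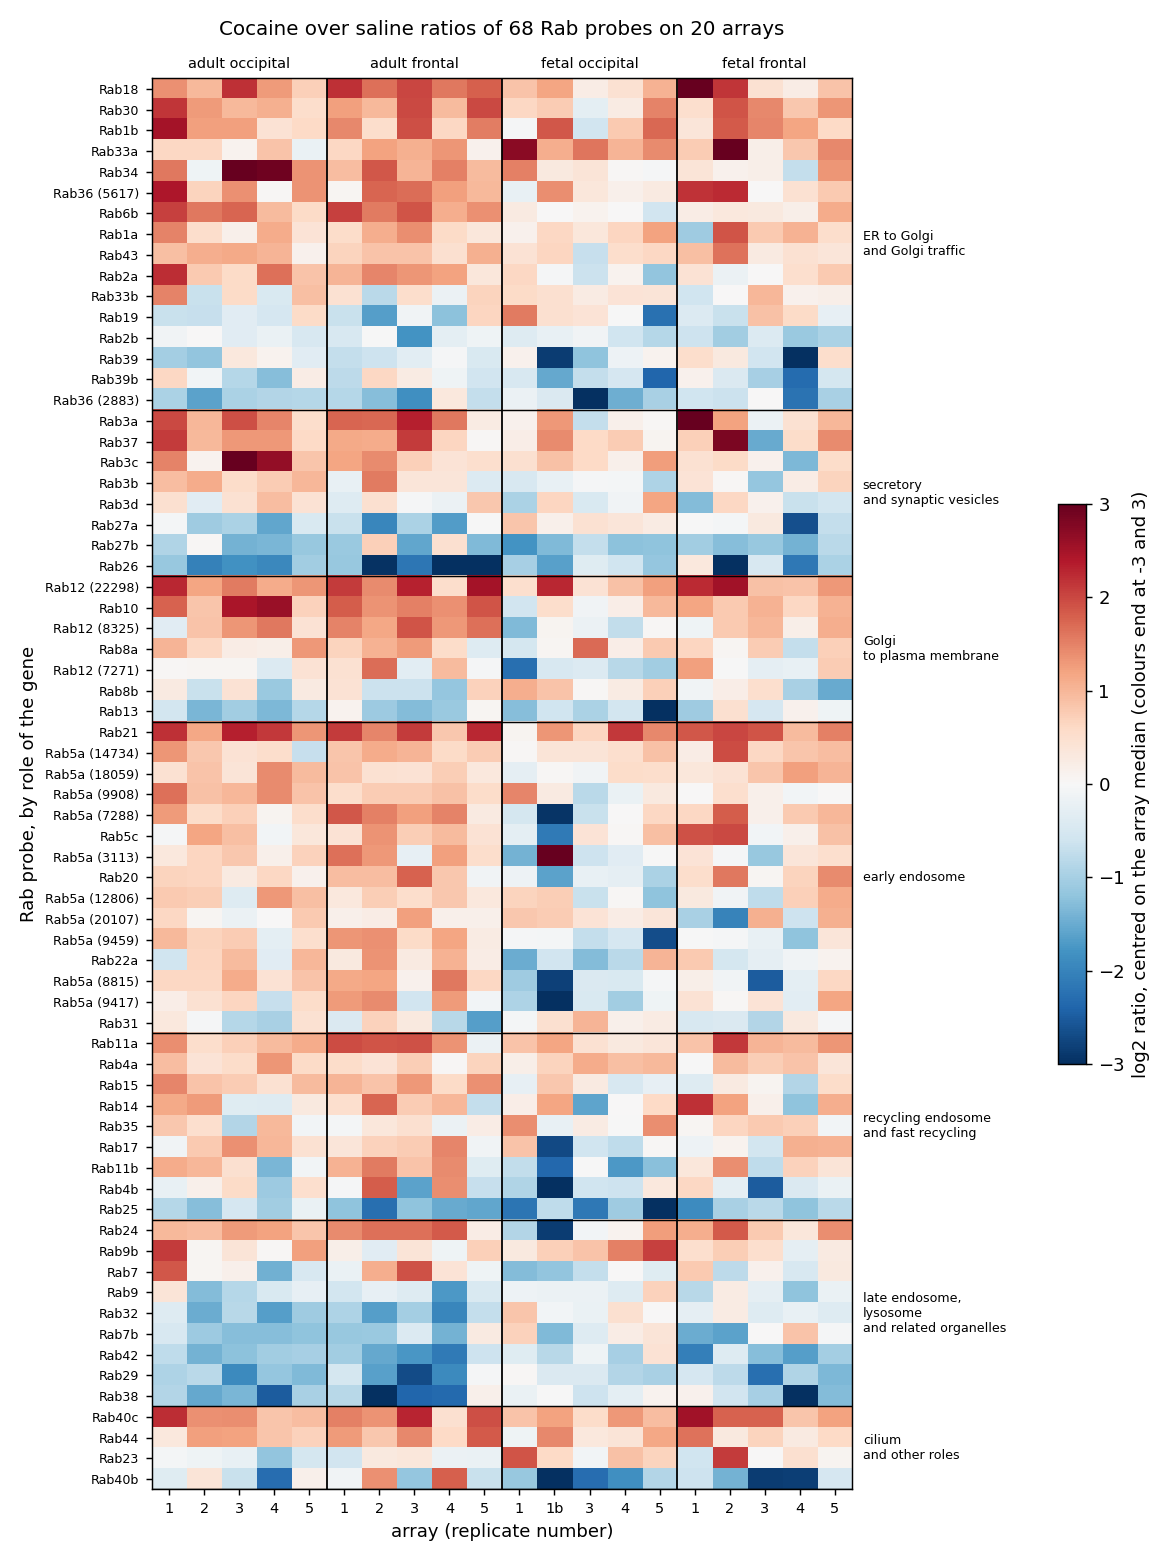
Each row is 1 of the 68 Rab probes, grouped by the role of its gene and ordered by its mean over the 4 groups, and each column is 1 of the 20 arrays. Colour gives the log2 ratio, likely cocaine over saline, centred on the array median. Rab40c, Rab21, Rab18 and Rab12 probe 22298 are above 0 on all 20 arrays, and most late endosome and lysosome members are below 0 in the adult columns.

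The direction of a Rab ratio went with the brightness of its probe. Intensities are not at hand, so brightness was scored from the ratios themselves: dim spots give ratios that a pair of small integers can match, and the score averages how large those integers must be, ranked as a percentile among all probes. The Spearman correlation of group mean ratio and brightness percentile over the 68 Rab probes was 0.72 in adult occipital, 0.78 in adult frontal, 0.52 in fetal occipital and 0.81 in fetal frontal cortex, and over all probes 0.74, 0.78, 0.46 and 0.72. These coefficients describe probes that share the same arrays, and the score comes from the same ratios. Of the 15 Rab probes under the 33rd percentile, 9 were lower and 1 higher in adult occipital cortex, 10 were lower and 1 higher in adult frontal, 4 were lower in fetal occipital and 5 in fetal frontal cortex. The 1 higher probe was that of Rab2a in both adult regions. Of the 37 Rab probes from the 67th percentile up, 21 were higher in adult occipital, 23 in adult frontal and 18 in fetal frontal cortex with none lower, while in fetal occipital cortex 6 were higher and 3 lower. The shares of all probes called in these same brightness ranges were not counted. The correlations over all probes were of similar size to those over Rab probes. The counts by brightness are therefore not shown to be particular to Rab genes. The Rab median itself stood at brightness percentile 68.4.

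**Figure D2:**
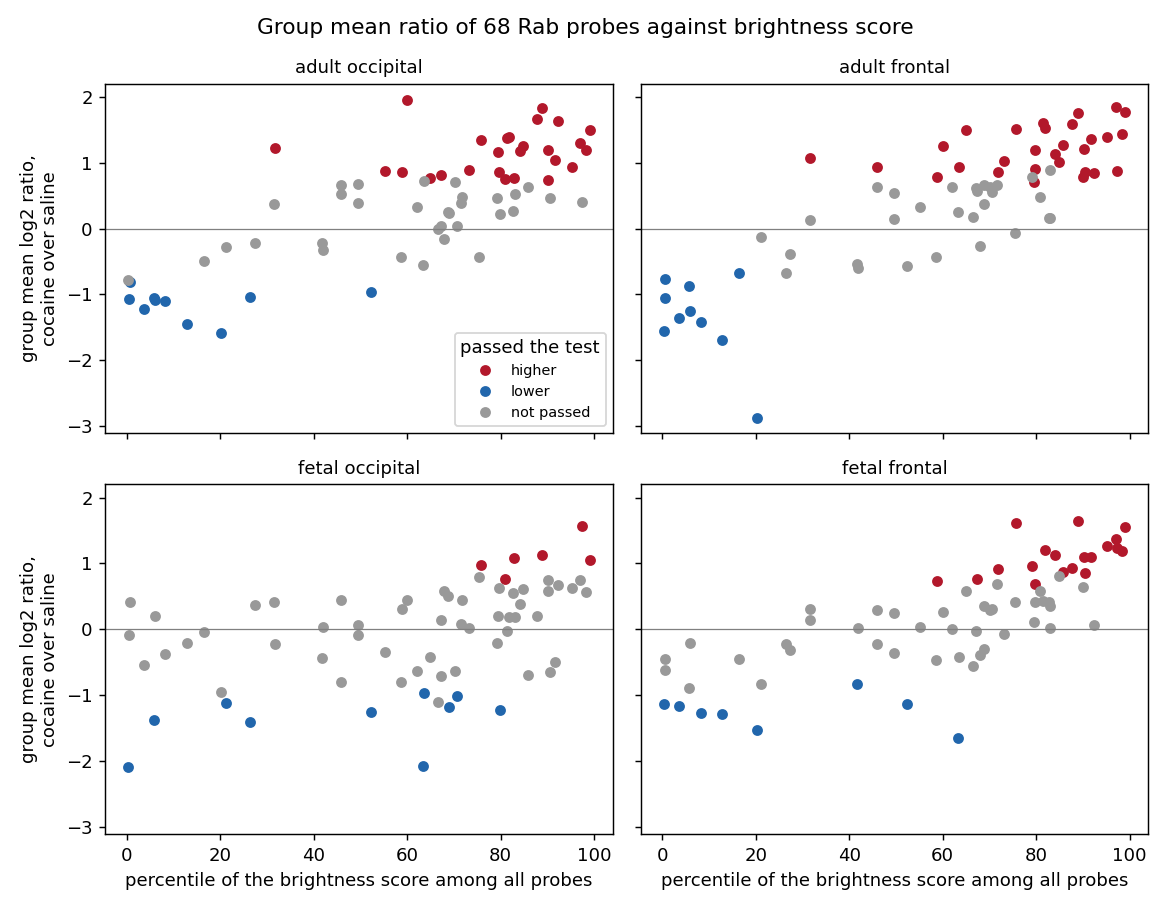
Each point is 1 of 68 Rab probes, with the percentile of its brightness score among all probes on the x axis and its group mean log2 ratio, likely cocaine over saline, on the y axis. Red points passed as higher, blue points as lower and grey points did not pass. In both adult groups the lower members gather at the left, with medians at percentiles 7.17 in adult occipital and 5.91 in adult frontal cortex, and the higher members at the right, with medians at 82.3 and 84.1.

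With the brightness trend removed from each array, 9 Rab probes were higher and 2 lower in adult occipital cortex, or 13.2% and 2.94%, where 7.27% and 6.30% of all probes were. In adult frontal cortex 8 were higher and 3 lower, or 11.8% and 4.41%, against 9.14% and 12.2% of all probes. In fetal occipital cortex 1 was higher and 11 lower, against 6.39% and 11.9% of all probes, and in fetal frontal cortex 1 was higher and 2 lower, against 3.51% and 4.97%. The Rab medians became 0.09, 0.12, -0.05 and -0.05 in adult occipital, adult frontal, fetal occipital and fetal frontal cortex. Rab40c, Rab2a, Rab34, Rab33b and Rab8a were higher under this setting in at least 1 adult region, and Rab26 was lower in adult frontal cortex at -1.97 ± 0.42 with an adjusted p of 0.00197. Calls made both as measured and under this setting were, in adult occipital cortex, Rab2a, Rab3b, Rab10, Rab21, Rab27b, Rab34, Rab40c and Rab43, and in adult frontal cortex Rab2a, Rab5a probe 9459, Rab6b, Rab12 probe 8325, Rab26, Rab34 and Rab40c. In fetal occipital cortex they were Rab5a probes 8815 and 9417, Rab11b, Rab12 probe 7271, Rab13, Rab25, Rab27b and Rab40b, and in fetal frontal cortex Rab27b, Rab40b and Rab40c. The other Rab calls described below were not made with the brightness trend removed. Some calls were made only under this setting. In fetal occipital cortex Rab27a was higher (0.87), and Rab20 (-1.17), Rab5a probe 7288 (-1.15) and Rab24 (-1.05) were lower. In adult frontal cortex Rab8a and Rab33b were higher, and Rab35 and Rab9b lower (each -0.79). In adult occipital cortex Rab8a and Rab33b were higher and Rab23 lower (-0.99).

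Only 3 Rab probes were higher in all 4 groups, or 4.41%, where 4.84% of all probes were, and 0 were lower in all 4, where 5.28% of all probes were. They belong to Rab40c, Rab21 and Rab12. For Rab12 this holds for probe 22298 alone, and its probe 7271 was lower in fetal occipital cortex (-1.01). A further 7 probes, or 10.3%, were lower in 3 groups, where 9.90% of all probes were, those of Rab25, Rab26, Rab27b, Rab29, Rab38, Rab42 and 1 of the probes of Rab36. Promoter windows of these members are shown because, within each direction, they were called in the most groups. Another 11 Rab probes were higher in exactly 3 groups, a share not computed for all probes, and are not shown. The higher and the lower windows were therefore picked at unlike numbers of groups. The shares of 4.41% and 10.3% lie near those of all probes. RefSeq windows (GRCm38.p6) were at hand for 45 of the 56 Rab genes, among them all 3 of the higher members and, of the lower ones, Rab25, Rab29 and Rab42, while Rab26, Rab27b, Rab36 and Rab38 are named only. Each line gives the 250 bases before the start, 5′ to 3′ on the strand of the gene, with the GC box (GGGCGG on either strand), a site of Sp1-type factors, in capitals.
Rab40c, chr17:25919715-25919964 (- strand): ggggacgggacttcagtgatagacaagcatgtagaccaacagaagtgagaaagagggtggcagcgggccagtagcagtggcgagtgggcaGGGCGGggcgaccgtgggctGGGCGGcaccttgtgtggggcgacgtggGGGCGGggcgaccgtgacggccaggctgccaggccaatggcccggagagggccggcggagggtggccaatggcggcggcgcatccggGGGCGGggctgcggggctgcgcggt
Rab21, chr10:115315592-115315841 (- strand): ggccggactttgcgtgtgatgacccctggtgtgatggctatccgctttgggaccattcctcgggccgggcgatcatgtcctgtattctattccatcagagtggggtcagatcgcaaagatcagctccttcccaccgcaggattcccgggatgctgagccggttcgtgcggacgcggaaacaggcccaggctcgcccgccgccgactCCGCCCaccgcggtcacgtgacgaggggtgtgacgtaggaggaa
Rab12, chr17:66519671-66519920 (- strand): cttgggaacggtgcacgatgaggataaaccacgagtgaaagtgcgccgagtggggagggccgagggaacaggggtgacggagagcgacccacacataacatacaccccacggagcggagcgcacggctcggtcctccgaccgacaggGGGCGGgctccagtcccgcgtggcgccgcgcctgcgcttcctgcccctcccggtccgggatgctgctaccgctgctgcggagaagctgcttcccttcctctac
Rab25, chr3:88548280-88548529 (- strand): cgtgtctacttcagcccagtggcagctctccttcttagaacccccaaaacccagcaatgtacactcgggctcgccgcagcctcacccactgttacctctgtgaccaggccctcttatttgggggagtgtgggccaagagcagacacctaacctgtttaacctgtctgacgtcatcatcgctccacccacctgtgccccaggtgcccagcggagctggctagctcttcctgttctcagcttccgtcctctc
Rab29, chr1:131867027-131867276 (+ strand): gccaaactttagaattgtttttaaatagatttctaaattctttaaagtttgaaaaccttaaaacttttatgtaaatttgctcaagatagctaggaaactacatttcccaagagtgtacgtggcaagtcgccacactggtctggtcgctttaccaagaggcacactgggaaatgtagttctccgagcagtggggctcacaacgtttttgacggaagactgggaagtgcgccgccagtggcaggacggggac
Rab42, chr4:132303357-132303606 (- strand): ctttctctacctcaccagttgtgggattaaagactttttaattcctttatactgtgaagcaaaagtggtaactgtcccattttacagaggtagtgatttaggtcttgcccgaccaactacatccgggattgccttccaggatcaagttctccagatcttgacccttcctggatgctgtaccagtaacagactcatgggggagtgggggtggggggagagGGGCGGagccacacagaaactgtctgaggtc

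The windows of the 3 genes with a probe higher in all 4 groups were rich in CpG. Rab40c, Rab21 and Rab12 had 24, 24 and 26 CpG dinucleotides, against 8 in Rab25, 9 in Rab29 and 3 in Rab42, where the median was 15 over the 57 windows of Rab genes and 6 over all 32851 windows. The GC box was in the windows of Rab40c (4 copies), Rab21, Rab12 and Rab42 (1 copy each), in 66.7% of Rab windows and in 32.7% of all windows. CCAAT on either strand was in the Rab40c window alone of these 6, and in 33.8% of all windows. TATAAA was in that of Rab42 (12.4% of all windows), CACGTG, the E box, in that of Rab21 (6.02%), and TGACGTCA, the cyclic AMP response element, in that of Rab25 (1.55%). Each was searched on both strands. These are matches of letters in the windows and not measured sites.

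Rab40c and Rab40b carry a SOCS box and act in Cullin-type ubiquitin ligases, unlike other Rab proteins. Rab40c had 2.22, 1.37, 1.39, 0.83 and 0.92 on the 5 adult occipital arrays, 1.51, 1.36, 2.29, 0.49 and 1.92 on the adult frontal ones, 0.86, 1.21, 0.56, 1.30 and 0.92 on the fetal occipital ones and 2.52, 1.77, 1.76, 0.83 and 1.21 on the fetal frontal ones. It was above 0 on all 20 arrays, with means of 1.35 ± 0.28, 1.51 ± 0.28, 0.97 ± 0.28 and 1.62 ± 0.28 and limma adjusted p of 0.000729, 7.42e-05, 0.0138 and 0.000266. With the brightness trend removed it still passed in adult occipital (0.77), adult frontal (0.81) and fetal frontal cortex (1.13) and not in fetal occipital cortex (0.67), and with the position trend removed too it passed in adult frontal (0.69) and fetal frontal cortex (1.09). Without fetal occipital replicate 4 the fetal occipital call was lost (0.89, adjusted p 0.0554). Rab40b went the other way in the fetal wall. Its ratios were -1.14, -4.18, -2.28, -1.84 and -0.88 in fetal occipital and -0.61, -1.42, -2.85, -2.82 and -0.51 in fetal frontal cortex, below 0 on all 10 fetal arrays, against -0.37, 0.38, -0.66, -2.28 and 0.16 in adult occipital and -0.12, 1.36, -1.15, 1.78 and -0.66 in adult frontal cortex. The fetal means of -2.07 ± 0.44 and -1.64 ± 0.44 passed (limma adjusted p 0.00178 and 0.00489) and did so also with both the brightness and the position trend removed (-1.07 and -1.43). The adult means of -0.56 and 0.24 did not pass. Of 13 sets of Rab genes that share a number and differ in the letter, with 28 genes, Rab40 was the only one whose members passed in opposite directions, in both fetal groups and in neither adult group.

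Rab21, which guides integrin uptake at early endosomes, had 2.18, 1.16, 2.33, 2.12 and 1.32 in adult occipital, 2.11, 1.48, 2.09, 0.81 and 2.27 in adult frontal, 0.09, 1.32, 0.63, 2.13 and 1.45 in fetal occipital and 1.86, 1.999, 1.89, 0.96 and 1.52 in fetal frontal cortex. It was the highest passed member in fetal frontal cortex (1.65 ± 0.29, limma adjusted p 0.000274) and second in adult occipital cortex (1.82 ± 0.29, adjusted p 0.000131). Without fetal occipital replicate 4 its fetal occipital mean of 1.12 became 0.87 and was no longer called (adjusted p 0.0559). With the brightness trend removed it passed in adult occipital cortex only (0.88).

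Rab12, which sends transferrin receptor from recycling endosomes to lysosomes, was read by 3 probes that did not move as one. Probe 22298, at brightness percentile 99.1, had 2.26, 1.19, 1.57, 1.10 and 1.33 in adult occipital, 2.09, 1.41, 2.32, 0.52 and 2.50 in adult frontal, 0.51, 2.25, 0.43, 0.88 and 1.22 in fetal occipital and 2.25, 2.51, 0.87, 0.85 and 1.29 in fetal frontal cortex. Its means were 1.49, 1.77, 1.06 and 1.56, each ± 0.32, and the fetal occipital one lost its call without replicate 1b (0.76) or replicate 5 (1.02). Probe 7271, annotated to the same transcript, averaged 0.04, 0.55, -1.01 and 0.31 in the same order of groups and passed as lower in fetal occipital cortex (adjusted p 0.0166), where its 5 arrays lay between -2.27 and -0.40. Those 2 probes of 1 transcript therefore passed in opposite directions in fetal occipital cortex, where probe 7271 was not called without replicate 1 (-0.69, adjusted p 0.101). Probe 8325, annotated to another transcript, passed in adult frontal cortex at 1.50 ± 0.29 and in adult occipital cortex at 0.77 ± 0.29, and the adult occipital call was lost without replicate 2, 3 or 4 (0.75, 0.63 and 0.57). Which part of the gene each probe reads was not analysed here.

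**Figure D3:**
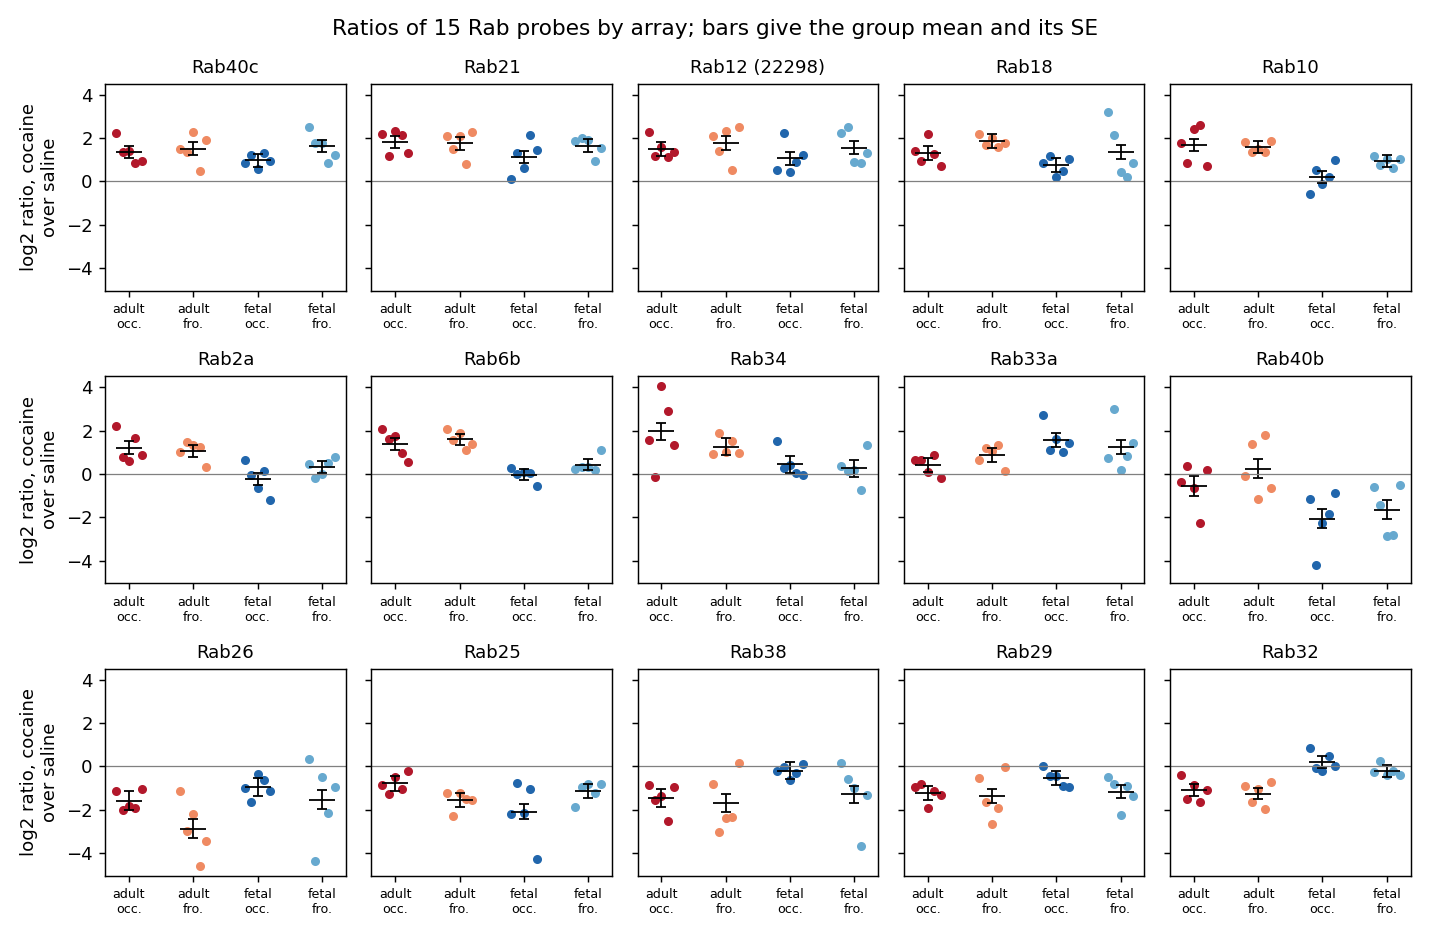
Each panel is 1 Rab probe, with the 4 groups on the x axis and the log2 ratio, likely cocaine over saline, on the y axis. Points are arrays, 5 per group, and the black mark and bar give the group mean and its SE from the limma model. Rab40b lies below 0 on all 10 fetal arrays and on both sides of 0 in the adult groups, and Rab2a and Rab6b lie above 0 on all 10 adult arrays.

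Among members of the traffic between endoplasmic reticulum and Golgi and within the Golgi (15 genes, 16 probes), 9 probes were higher and 1 lower in adult occipital, 10 and 1 in adult frontal, 1 and 2 in fetal occipital and 6 and 1 in fetal frontal cortex. Their medians were 0.80, 0.83, 0.34 and 0.37. The counts of this and each later role stand beside 24.1% higher and 24.1% lower of all probes in adult occipital cortex. For all probes the shares were 26.8% and 29.4% in adult frontal, 10.5% and 14.2% in fetal occipital and 18.7% and 18.4% in fetal frontal cortex. Rab18, which acts at the endoplasmic reticulum and on lipid droplets, was the highest member of adult frontal cortex. It had 1.38, 0.96, 2.19, 1.28 and 0.71 in adult occipital, 2.19, 1.66, 2.01, 1.58 and 1.79 in adult frontal, 0.86, 1.17, 0.23, 0.47 and 1.04 in fetal occipital and 3.21, 2.14, 0.46, 0.22 and 0.84 in fetal frontal cortex. All 20 ratios were above 0, the means were 1.30, 1.85, 0.75 and 1.37 (each ± 0.32), and the fetal occipital one did not pass (limma adjusted p 0.0809). Its probe lay at brightness percentile 97.0.

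Rab34, a Golgi-linked Rab needed for cilia and for lysosome positioning, was the highest member of adult occipital cortex. Its arrays read 1.58, -0.13, 4.07, 2.92 and 1.34 there and 0.92, 1.87, 1.03, 1.52 and 0.95 in adult frontal cortex, with means of 1.96 ± 0.38 and 1.26 ± 0.38 (limma adjusted p 0.000399 and 0.00554). Adult occipital replicate 2 was the 1 adult array below 0. The fetal means of 0.44 and 0.26, occipital then frontal, did not pass. Both adult calls were also made with the brightness trend removed (1.81 and 1.07), and with both trends removed (1.75 and 1.09). Rab33a, a Golgi Rab with a part in axon outgrowth, was the highest member of fetal occipital cortex. It had 0.63, 0.63, 0.10, 0.87 and -0.20 in adult occipital, 0.62, 1.20, 1.07, 1.33 and 0.13 in adult frontal, 2.70, 1.10, 1.60, 1.02 and 1.42 in fetal occipital and 0.75, 3.00, 0.18, 0.81 and 1.45 in fetal frontal cortex. The mean of 1.57 ± 0.32 in fetal occipital cortex passed (adjusted p 0.00113), as it did with both trends removed (0.94) but not with brightness alone removed (0.87, adjusted p 0.0719). The adult frontal mean of 0.87 passed as measured (adjusted p 0.0204) and turned to -0.78 with both trends removed (adjusted p 0.0435); it was also not called without adult frontal replicate 2, 3 or 4 (0.79, 0.82 and 0.76). Without replicate 2 the fetal frontal mean of 1.24 became 0.80 (adjusted p 0.0592).

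Rab1a, which starts traffic from the endoplasmic reticulum to the Golgi, averaged 0.74 ± 0.31 in adult occipital and 0.79 ± 0.31 in adult frontal cortex and passed in both (limma adjusted p 0.0468 and 0.0298). Those calls were lost when replicate 1, 2, 4 or 5 of adult occipital (0.55 to 0.82) or replicate 2 or 3 of adult frontal cortex (0.72 and 0.64) was left out, and with the brightness trend removed the means were -0.23 and -0.42. Rab1b, its close relative, was higher at 1.19 and 1.21 in the adult regions and at 1.09 in fetal frontal cortex. Rab30, another Golgi Rab, was higher in the same groups at 1.20, 1.43 and 1.19. Rab43, with a part in Golgi upkeep, passed in them as well, at 0.85, 0.78 and 0.73. Rab39b, whose human gene is linked to intellectual disability and early parkinsonism, was lower in fetal occipital cortex at -1.12 ± 0.33. Rab2b was lower in fetal frontal cortex at -0.83 ± 0.26. Rab36, a Rab of the Golgi region, was read by 2 probes of 1 transcript that passed in opposite directions in both adult regions. Probe 2883, at brightness percentile 5.77, averaged -1.05 ± 0.37 in adult occipital and -0.88 ± 0.37 in adult frontal cortex, whereas probe 5617, at percentile 84.1, averaged 1.17 ± 0.34 and 1.14 ± 0.34. Averaged, the pair stood at 0.06 and 0.13 and did not pass. Without adult occipital replicate 2 (-0.91) or adult frontal replicate 1, 2, 3 or 5 (-0.92 to -0.64) the call of probe 2883 was lost, and without adult occipital replicate 1 that of probe 5617 (0.86). Probe 2883 was lower in fetal occipital cortex too, at -1.37, a call lost without replicate 3 (-0.76). Rab19, Rab33b and Rab39, further members of the Golgi list, passed in no group as measured.

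Rabs of secretory granules and synaptic vesicles (8 genes, 8 probes) were split. In adult occipital cortex 4 were higher and 3 lower, in adult frontal 3 and 2, in fetal occipital 0 and 1 and in fetal frontal cortex 1 and 2. Rab3a, the main Rab of synaptic vesicles and a regulator of transmitter release, had 1.99, 1.01, 1.94, 1.48 and 0.52 in adult occipital, 1.75, 1.71, 2.34, 1.58 and 0.25 in adult frontal, 0.14, 1.31, -0.71, 0.14 and 0.04 in fetal occipital and 3.49, 1.21, -0.17, 0.46 and 1.00 in fetal frontal cortex. The means of 1.39, 1.53 and 1.20 (each ± 0.37) in the adult occipital, adult frontal and fetal frontal groups passed, with limma adjusted p of 0.00348, 0.000885 and 0.0122, and the fetal occipital mean of 0.18 did not. The fetal frontal value rests on replicate 1, without which it was 0.62 (adjusted p 0.161). Rab3c, a close relative found in brain, averaged 1.64 in adult occipital and 0.84 in adult frontal cortex and passed in both. Rab3b was higher in adult occipital cortex at 0.87 and Rab3d passed in no group. Rab37, a granule Rab, was higher in both adult regions at 1.25 and 1.01.

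Rab26, which links synaptic vesicles and secretory granules to autophagy, was the lowest member of both adult regions. Its ratios were -1.14, -2.02, -1.81, -1.93 and -1.05 in adult occipital, -1.14, -2.97, -2.18, -4.61 and -3.44 in adult frontal, -0.99, -1.62, -0.36, -0.61 and -1.15 in fetal occipital and 0.32, -4.38, -0.48, -2.15 and -0.95 in fetal frontal cortex. It was below 0 on 19 of 20 arrays. The means of -1.59 ± 0.43, -2.87 ± 0.43 and -1.53 ± 0.43 in adult occipital, adult frontal and fetal frontal cortex passed (limma adjusted p 0.00423, 9.84e-06 and 0.00723), and the fetal frontal one lost its call without replicate 2 (-0.82, adjusted p 0.134). The probe lay at brightness percentile 20.2, and whole numbers up to 20 could match 10 of its 20 ratios, as in a dim spot. Such numbers also matched 16.8% to 53.7% of all values per array and 12.0% of random ratios. Dimness is thus inferred and was not measured. Rab27a, a Rab of regulated secretion, averaged -0.81 in adult occipital and -1.05 in adult frontal cortex and passed. Its probe lay at brightness percentile 0.643, however, and with the brightness trend removed these means were 0.37 and 0.52, not called. Under that setting Rab27a passed as higher in fetal occipital cortex (0.87), where it was not called as measured. The adult occipital call of Rab27a was lost without replicate 2, 3, 4 or 5 (-0.90 to -0.63) and the adult frontal one without replicate 2 (-0.82). Rab27b, its relative on exosome-releasing compartments, was lower at -0.96 ± 0.30 in adult occipital, -1.25 ± 0.30 in fetal occipital and -1.14 ± 0.30 in fetal frontal cortex. All 10 fetal arrays lay between -1.78 and -0.72 for Rab27b, at a middling percentile of 52.3, and all 3 calls were also made with the brightness trend removed (-0.92, -1.25 and -1.09). When position was removed too, the fetal occipital one was lost (-0.65). The adult occipital one had an adjusted p of 0.0503 without replicate 3 (-0.84).

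Rabs that carry cargo from the Golgi and endosomes to the plasma membrane (5 genes, 7 probes, 3 of them of Rab12, whose route given above leads to lysosomes) had 3 higher and 1 lower in adult occipital, 3 and 0 in adult frontal, 1 and 2 in fetal occipital and 2 and 0 in fetal frontal cortex. Apart from Rab12, Rab10 was the 1 higher member, in all groups but fetal occipital cortex, and Rab13 the 1 lower one, in both occipital groups. Rab8a, of exocytosis and cilium growth, averaged 0.67, 0.63, 0.44 and 0.29 in adult occipital, adult frontal, fetal occipital and fetal frontal cortex and passed in none, and with the brightness trend removed it passed in both adult regions at 0.87 and 0.85. Rab8b passed in no group. Rab13, of junction assembly, was lower in adult occipital cortex at -1.04 ± 0.34 and in fetal occipital cortex at -1.41 ± 0.34. On the fetal occipital arrays it read -1.28, -0.60, -0.94, -0.55 and -3.70, and without replicate 5 the mean was -0.84 (adjusted p 0.0616). Without adult occipital replicate 2 or 4 its mean there was -0.95 or -0.96, and no longer called.

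Early endosome members (6 genes, 15 probes, of which 10 are Rab5a) had 3 higher and 0 lower in adult occipital, 7 and 0 in adult frontal, 1 and 2 in fetal occipital and 6 and 0 in fetal frontal cortex. The higher shares were 20.0%, 46.7%, 6.67% and 40.0% in that order, against 24.1%, 26.8%, 10.5% and 18.7% of all probes. Rab5a, which drives fusion of early endosomes, was read at 10 spots of 1 transcript spread over the array. Its mean over the 10 probes was 0.82, 0.63, 0.53, 0.43 and 0.59 on the adult occipital arrays, 0.99, 1.01, 0.51, 0.99 and 0.37 on the adult frontal ones, -0.13, -0.36, -0.37, -0.12 and -0.14 on the fetal occipital ones and 0.15, 0.24, -0.14, 0.14 and 0.78 on the fetal frontal ones. All 10 adult arrays lay above 0 and all 5 fetal occipital arrays below 0, without overlap. The share of all genes without such overlap was not counted. Fetal frontal cortex overlapped adult occipital and adult frontal cortex through replicate 5 and fetal occipital cortex through replicate 3. With the position trend removed, the fetal occipital arrays read 0.42, 0.59, -0.22, 0.14 and -0.0026, on both sides of 0, and replicate 1b lay within the range of the adult arrays (0.44 to 1.03). The group means over arrays were 0.60 ± 0.15, 0.77 ± 0.31, -0.22 ± 0.13 and 0.23 ± 0.34 (SD, n = 5 each). Single probes passed as higher in 2, 5, 0 and 3 of 10 cases and as lower in 0, 0, 2 and 0 in adult occipital, adult frontal, fetal occipital and fetal frontal cortex. Of all probes, 24.1%, 26.8%, 10.5% and 18.7% passed as higher in the same order, and 24.1%, 29.4%, 14.2% and 18.4% as lower.

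**Figure D4:**
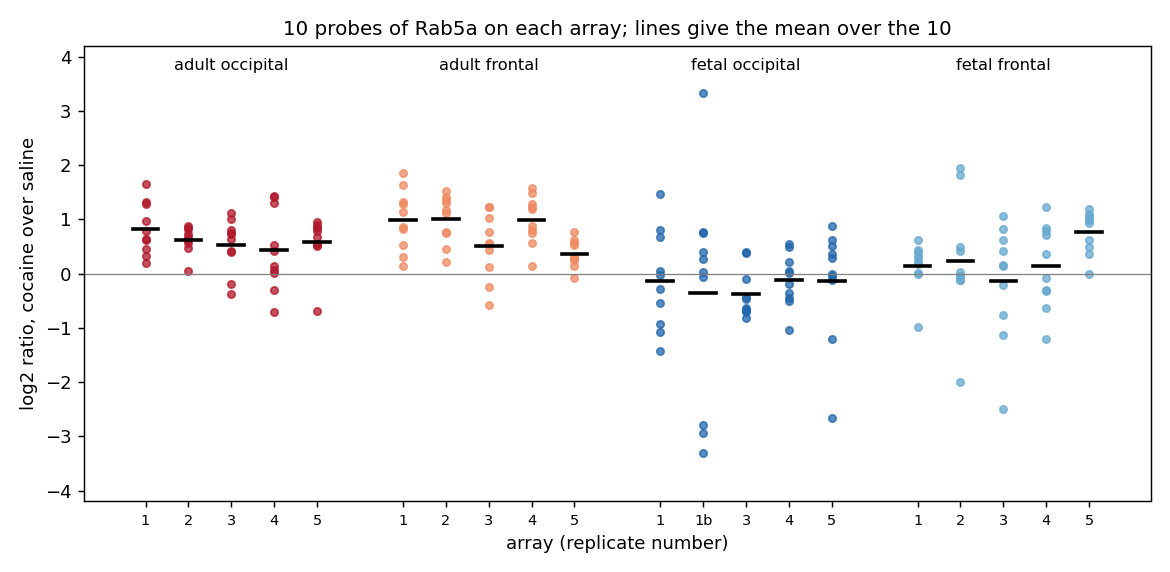
Each point is 1 of 10 Rab5a probes on 1 array, the x axis gives the array by its replicate number within the 4 groups, and the y axis the log2 ratio, likely cocaine over saline. Black lines give the mean over the 10 probes. The points spread widest on fetal occipital replicate 1b, from -3.31 to 3.33, around a mean of -0.36.

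The same transcript read at 10 places shows how far spots of 1 array disagree. The SD over the 10 Rab5a probes had a median over arrays of 0.48 in adult occipital, 0.44 in adult frontal, 0.91 in fetal occipital and 0.77 in fetal frontal cortex, and reached 2.07 on fetal occipital replicate 1b. Over all 20 arrays its median was 0.486, and 32 of the 44 genes with 10 probes of 1 accession had a larger one (median over those genes 0.542). A member with a single probe carries that spread unseen. Rab20 and Rab5c, both early endosome Rabs, were higher in fetal frontal cortex at 0.85 ± 0.29 and 0.97 ± 0.34. Rab20 was also higher in adult frontal cortex at 0.87, and these 2 calls of Rab20 were lost without fetal frontal replicate 2 or 5 (0.67 and 0.71) and without adult frontal replicate 3 (0.64). With the brightness trend removed, Rab20 passed as lower in fetal occipital cortex (-1.17). Rab22a and Rab31 passed in no group.

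Recycling members (9 genes, 9 probes) had 3 higher and 0 lower in adult occipital, 3 and 1 in adult frontal, 1 and 2 in fetal occipital and 1 and 1 in fetal frontal cortex. The higher shares were 33.3%, 33.3%, 11.1% and 11.1% in that order, against 24.1%, 26.8%, 10.5% and 18.7% of all probes. Rab11a, which marks the recycling endosome that returns receptors to synapses, averaged 0.94 ± 0.29 in adult occipital, 1.38 ± 0.29 in adult frontal, 0.63 ± 0.29 in fetal occipital and 1.26 ± 0.29 in fetal frontal cortex and passed in all but the fetal occipital group. Its adult frontal arrays read 1.95, 1.88, 1.91, 1.34 and -0.17. At brightness percentile 95.2, its adult means were -0.19 and -0.03 with that trend removed. Rab11b, a close relative, was one of 2 Rab probes that passed as higher in one group and lower in another. The other was Rab5a probe 8815, and the share of all probes with such calls was not computed. Rab11b averaged 0.90 ± 0.35 in adult frontal and -1.22 ± 0.35 in fetal occipital cortex, and the calls were lost without adult frontal replicate 1, 2, 3 or 4 (0.74 to 0.92) and without fetal occipital replicate 1b or 4 (-0.93 and -1.09). Rab5a probe 8815 averaged 0.93 in adult frontal and -0.96 in fetal occipital cortex, and the fetal occipital value was 0.22 with the position trend removed. Its calls were lost without adult frontal replicate 1, 2 or 4 (0.76 to 0.87) and without fetal occipital replicate 1, 1b, 3 or 4 (-1.09 to -0.50).

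Rab4a, of fast recycling, was higher at 0.76 ± 0.25 in adult occipital and 0.77 ± 0.25 in fetal occipital cortex, and stood at 0.48 and 0.58 in adult frontal and fetal frontal cortex, where it did not pass. Its calls were lost without adult occipital replicate 4 (0.61) and without fetal occipital replicate 1b, 3, 4 or 5 (0.68 to 0.79). Rab15, a neuron-enriched Rab, was higher in both adult regions at 0.90 and 1.02. Rab14, Rab17, Rab35 and Rab4b passed in no group as measured, and Rab35 was lower in adult frontal cortex with the brightness trend removed (-0.79). Rab25, an epithelial relative of Rab11, was the lowest member of fetal occipital cortex. Its ratios were -0.85, -1.29, -0.50, -1.04 and -0.20 in adult occipital, -1.21, -2.27, -1.22, -1.52 and -1.55 in adult frontal, -2.19, -0.75, -2.13, -1.06 and -4.28 in fetal occipital and -1.89, -0.96, -0.81, -1.21 and -0.81 in fetal frontal cortex. All 20 lay below 0, and the means of -1.55, -2.08 and -1.13 (each ± 0.33) in adult frontal, fetal occipital and fetal frontal cortex passed, with limma adjusted p of 0.000294, 0.000162 and 0.00913, while the adult occipital mean of -0.78 had one of 0.054. The probe lay at brightness percentile 0.368, and whole numbers up to 20 could match 15 of its 20 ratios, as in a dim spot. With the brightness trend removed the adult frontal mean was 0.16 and the fetal occipital one still passed at -1.60.

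Members of late endosomes, lysosomes and related organelles (9 genes, 9 probes) had medians below 0 in both adult groups, where the median of each other role was above 0. Here 2 were higher and 5 lower in adult occipital, 1 and 6 in adult frontal, 1 and 0 in fetal occipital and 1 and 3 in fetal frontal cortex, with medians of -1.07, -0.76, -0.21 and -0.45. Their median brightness was at percentile 12.9, the lowest of the 7 roles, and the part of brightness in this was not tested beyond the removal of its trend. Rab38 and Rab32, which serve melanosomes and other lysosome-related organelles, were lower in both adult regions. Rab38 averaged -1.45 ± 0.40 in adult occipital, -1.69 ± 0.40 in adult frontal and -1.28 ± 0.40 in fetal frontal cortex, and the last was lost without replicate 4 (-0.69, adjusted p 0.175). Rab29, which recruits the kinase LRRK2 to lysosomes, was lower at -1.22, -1.36 and -1.16 (each ± 0.31) in those 3 groups. Rab42, of the same role list, was lower there too, at -1.09, -1.41 and -1.27. Rab7b passed as lower in both adult regions (-1.07 and -0.77), and Rab9, of late endosome to Golgi return, in adult frontal cortex (-0.68).

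With the brightness trend removed, Rab32, Rab38, Rab29, Rab42, Rab7b and Rab9 were called in no group. Rab7, the central Rab of late endosomes and lysosomes, averaged 0.03, 0.62, -0.71 and -0.02 in adult occipital, adult frontal, fetal occipital and fetal frontal cortex and passed in none. Rab24, an autophagy-linked Rab, was higher in adult occipital, adult frontal and fetal frontal cortex at 1.05, 1.36 and 1.10 (each ± 0.36). With the brightness trend removed, Rab24 was called only in fetal occipital cortex, as lower (-1.05). Rab9b was higher in adult occipital cortex at 0.76 ± 0.30 and in fetal occipital cortex at 1.08 ± 0.30. The calls of Rab9b were lost without adult occipital replicate 1 or 5 (0.43 and 0.64) and without fetal occipital replicate 5 (0.84), and in adult frontal cortex its mean of 0.17 turned to -0.79 and passed as lower with the brightness trend removed. Of the cilium and other members beside the Rab40 pair, Rab44 was higher in adult occipital, adult frontal and fetal frontal cortex at 0.86, 1.19 and 0.69 (each ± 0.28). Rab23, which tempers Hedgehog signalling at the cilium, passed in no group as measured, and was lower in adult occipital cortex with the brightness trend removed (-0.99) and in both adult regions with both trends removed (-1.07 and -0.97).

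Next, the response itself was compared between ages and regions. In the occipital cortex the adult ratio differed from the fetal one for 4 Rab probes, 3 of them higher, where 3.6% of all probes passed. Limma's unadjusted p was under 0.05 there for 21 higher and 6 lower Rab probes. These were 39.7% of Rab probes, against 25.8% of all probes. All differences of Rab probes ran from -1.30 to 1.68 with a median of 0.50, against 0.05 over all probes. Rab10, of exocytosis and axon growth, had 1.78, 0.83, 2.44, 2.59 and 0.70 on the adult occipital arrays, against -0.57, 0.53, -0.12, 0.20 and 0.97 on the fetal occipital ones, a difference of 1.47 ± 0.40 (limma adjusted p 0.0390). Rab2a, of Golgi to endoplasmic reticulum return, had 2.21, 0.78, 0.58, 1.64 and 0.86, against 0.62, -0.03, -0.64, 0.12 and -1.19, a difference of 1.44 ± 0.40 (adjusted p 0.0436). The adult and fetal arrays of these 2 genes overlapped, in Rab2a by replicate 3 of the adult and replicate 1 of the fetal arrays. Rab6b, the neuronal form of a Golgi Rab, was chosen here after its values were seen: it had 2.06, 1.59, 1.74, 0.95 and 0.56, against 0.28, 0.02, 0.11, 0.02 and -0.57, a difference of 1.41 ± 0.37 (adjusted p 0.0346). Rab32 had -0.39, -1.50, -0.84, -1.65 and -1.07, against 0.84, -0.09, -0.20, 0.49 and 0.00, a difference of -1.30 ± 0.37 (adjusted p 0.0462). In Rab6b and Rab32 the adult and the fetal arrays did not overlap. Both were picked by the test on these same arrays, so this adds no support. The share of all probes without such overlap was not counted. In adult frontal cortex Rab10 lay between 1.34 and 1.88, Rab2a between 0.34 and 1.47, Rab6b between 1.10 and 2.05 and Rab32 between -1.95 and -0.71, and each passed in both adult regions against 0. When each of the 10 occipital arrays was left out in turn, Rab10 passed 4 times, Rab2a 1 time, Rab6b 4 times and Rab32 3 times, with differences of 1.24 to 1.71, 1.19 to 1.65, 1.24 to 1.61 and -1.47 to -1.14. No call remained without fetal occipital replicate 4, adult occipital replicate 3 or adult occipital replicate 4, and with the brightness trend removed Rab2a still passed (1.75).

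In frontal cortex no Rab probe differed between adult and fetal, where 0.0266% of all probes passed. The smallest adjusted p values were those of Rab6b (1.17 ± 0.37, 0.186) and Rab40b (1.89 ± 0.62, 0.200). Limma's unadjusted p was under 0.05 for 8 Rab probes, 6 of them higher. These were 11.8% of Rab probes, where 14.1% of all probes had such a p. Between the fetal regions no Rab probe passed, where 0.0222% of all probes did. Rab20 (-1.49 ± 0.40, adjusted p 0.105) and Rab11b (-1.63 ± 0.50, adjusted p 0.136) came nearest, with ratios lower in fetal occipital than in fetal frontal cortex. Of the Rab probes, 12 had an unadjusted limma p under 0.05, 9 of them lower, or 17.6%, where 15.5% of all probes did. Between the adult regions no Rab probe passed, where 0% of all probes did. There limma's unadjusted p was under 0.05 for 1 Rab probe, or 1.47%, where it was for 2.71% of all probes. That probe was the one of Rab26 (1.28 ± 0.61, adjusted p 0.998). Rab12 probe 8325 was next, at -0.73 ± 0.40. A gap between groups in the counts above was thus not shown to be a difference in response. The 4 calls of occipital cortex came to 0 with the replicate number as a block, 0 with both trends removed, 0 without fetal occipital replicates 1 and 1b, and 1 from the occipital arrays alone.

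The machinery that runs the Rab cycle was also on the arrays, as 4 lists of genes. Counts in these lists stand beside 24.1% higher and 24.1% lower of all probes in adult occipital and 26.8% and 29.4% in adult frontal cortex. In fetal occipital cortex those shares were 10.5% and 14.2%, and in fetal frontal cortex 18.7% and 18.4%. Of the 7 measured probes of escort, prenylation and GDI genes, 0 were higher and 1 lower in adult occipital, 2 and 1 in adult frontal, 1 and 0 in fetal occipital and 1 and 1 in fetal frontal cortex. Rabggta, the alpha subunit of the transferase that prenylates Rabs, was higher at 1.15 ± 0.32 in adult frontal, 1.06 ± 0.32 in fetal occipital and 1.13 ± 0.32 in fetal frontal cortex, and stood at 0.61 in adult occipital cortex without passing. Rabggtb, the beta subunit, was higher in adult frontal cortex at 0.73 ± 0.28 and did not pass in fetal frontal cortex at -0.66. Chml, an escort protein of the Rep type, was lower at -0.85 ± 0.33 in adult occipital, -0.77 ± 0.33 in adult frontal and -0.95 ± 0.33 in fetal frontal cortex.

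Exchange factors (37 genes, 40 probes) had 10 higher and 6 lower in adult occipital, 9 and 8 in adult frontal, 5 and 6 in fetal occipital and 6 and 7 in fetal frontal cortex, with medians of -0.11, -0.03, -0.19 and 0.03. Ankrd27, the Vps9-domain exchange factor for Rab21 that also binds Rab32 and Rab38, was lower at -1.53 ± 0.31 in adult occipital and -2.44 ± 0.31 in adult frontal cortex. Dennd5b, of the DENN family, had a probe that was lower at -1.56, -1.79 and -1.33 (each ± 0.28) in adult occipital, adult frontal and fetal frontal cortex and another at -1.69 ± 0.38 in fetal occipital cortex. Trappc9, a subunit of the TRAPP complex, was higher in fetal frontal cortex at 1.20 ± 0.30. GTPase-activating proteins (36 genes, 40 probes) had 4 higher and 10 lower in adult occipital, 6 and 12 in adult frontal, 4 and 7 in fetal occipital and 2 and 8 in fetal frontal cortex. The lower counts stand beside 24.1%, 29.4%, 14.2% and 18.4% of all probes. The medians of these 40 probes were -0.30, -0.20, -0.29 and -0.27, with a median brightness at percentile 53.1. Tbc1d2b passed as lower at 1 or both of its probes, for example at -1.53 ± 0.31 in adult occipital and -1.78 ± 0.31 in fetal frontal cortex for one and -1.61 ± 0.29 in adult frontal cortex for the other. Tbc1d10c was higher in fetal occipital cortex at 1.28 ± 0.26.

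Effectors (54 genes, 62 probes) had 14 higher and 11 lower in adult occipital, 21 and 11 in adult frontal, 6 and 12 in fetal occipital and 10 and 10 in fetal frontal cortex, with medians of -0.08, 0.15, -0.13 and -0.08. Rufy1, a partner of Rab4 and Rab14 on endosomes, was lower at -1.43 ± 0.32, -1.80 ± 0.32 and -1.67 ± 0.32 in adult occipital, adult frontal and fetal frontal cortex. Rbsn, the Rab5 effector rabenosyn, was lower at -1.32 ± 0.33 in adult occipital and -1.38 ± 0.33 in fetal occipital cortex. Rims1, the active-zone scaffold that binds Rab3, was higher in adult occipital cortex at 1.60 ± 0.36. Exoc6b, an exocyst subunit, was higher in adult frontal cortex at 1.70 ± 0.32, and Rab11fip5, a Rab11 partner, in fetal frontal cortex at 1.47 ± 0.30. Of these 4 lists, adult minus fetal ratios in occipital cortex passed for 3 exchange factor and 2 GTPase-activating protein probes, all higher.

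The neuron, astrocyte and oligodendrocyte lists had medians above 0 in both adult regions, as the Rab probes did. Other lists did not all do so. In adult occipital and adult frontal cortex the medians were -0.88 and -1.20 for red cell markers. They were -0.10 and -0.48 for meninges and choroid plexus and 0.10 and -0.18 for endothelial and mural markers. For microglia they were 0.007 and 0.57, and for striatum -0.005 and 0.62. The part of cell types in the Rab results was not tested. Of 18 neuron marker probes 10 were higher and 2 lower in adult occipital, 13 and 2 in adult frontal, 4 and 2 in fetal occipital and 3 and 1 in fetal frontal cortex, with medians of 0.85, 1.18, 0.02 and 0.44 and a median brightness at percentile 71.4. Of 11 oligodendrocyte probes 7 and 8 were higher in adult occipital and adult frontal cortex with none lower, and of 13 astrocyte probes 5 and 6. Of 11 microglia probes 3 were higher and 1 lower in adult occipital and 4 and 1 in adult frontal cortex. Of 14 endothelial and mural probes 2 and 3, and 4 and 4, passed in those regions, of 12 meninges and choroid plexus probes 3 and 3 in each, and of 9 striatum probes 2 and 0, and 3 and 2. Of 7 red cell probes 2 were higher and 4 lower in adult occipital and 2 and 5 in adult frontal cortex, at a median brightness percentile of 32.0. Marker counts stand beside 24.1% higher and 24.1% lower of all probes in adult occipital and 26.8% and 29.4% in adult frontal cortex. In fetal occipital cortex those shares were 10.5% and 14.2%, and in fetal frontal cortex 18.7% and 18.4%. The 803 olfactory receptor probes, which cortex hardly uses, had a median brightness at percentile 43.0, against 68.4 for the Rab probes. Their median ratios were -0.38, -0.66, -0.15 and -0.36 in adult occipital, adult frontal, fetal occipital and fetal frontal cortex. These were opposite in sign to the Rab medians in all groups, of which the fetal occipital one was only 0.05. The part of brightness in this contrast was not tested.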

How the data were processed

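Each of the 20 arrays carries 22575 probes, and the deposited values are log2 ratios of the 2 channels, 1 per probe and array. The sources used here do not give scanner, software, normalization or the direction of the ratio, and no intensities were at hand. The array's highest value, shared by 6 to 27 probes per array, was taken as missing, 1368 exact zeros among the deposited log2 values were kept, and each array was centred on its median (-0.261 to 0.316 as deposited). Probes needed 3 values per group, which left 22567. A limma (3.58.1, R 4.3.3) model of 4 group means gave the means against 0 and 4 differences, adjusted over all probes with the Benjamini-Hochberg method. Tested on simulated data, changes of size 2 were recovered in 95 to 98 of 100 probes per group and changes of size 1 in 29 to 41 of 100. Far fewer probes were changed there than passed on the real arrays, and the simulated noise held no brightness, position or dye trend. Those rates therefore do not describe the calls reported here. Symbols came from the platform annotation (18218 probes with 1 symbol, 16 with several, 4341 with none).

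The rule for named members took the 3 highest and 3 lowest passed probes per group, probes passed one way in all 4 groups, genes with probes passed in opposite directions, the 2 largest passed differences each way (or the 2 smallest p where none passed), landmark Rabs, and up to 3 genes per list with the smallest p. Means of further members are given by role, outside that rule. The Rab members, the roles and the gene lists were chosen with earlier results of these data known. Arrays are separate litters within a region, but whether frontal and occipital samples share animals is not given. Same-numbered arrays had residual correlations of -0.13 to 0.38, against -0.41 to 0.40 for differently numbered ones. The numbers were therefore not taken as pairs. The number of arrays limits precision. Brightness and position trends were loess fits per array.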

Additional observations from a re-analysis of the deposited data

Results flagged for a closer look

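In 9 of 164 groups of 5 arrays tested, 1 array stood apart from the other 4 by Dixon's criterion, and chance alone gives about 1 in 20. Rab11a stood at -0.165 on adult frontal replicate 5, Rab36 probe 2883 at -1.614 on adult occipital replicate 2, and Rab5a probe 20107 at 1.223 on adult frontal replicate 3. In fetal occipital cortex Rab13 stood at -3.70 on replicate 5, Rab34 at 1.515 on replicate 1, Rab5a probe 9417 at -3.312 on replicate 1b and Rab5a probe 9459 at -2.661 on replicate 5. In fetal frontal cortex Rab32 stood at 0.243 on replicate 2 and Rab6b at 1.124 on replicate 5.

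The adult ratio differed from the fetal ratio in occipital cortex, by limma's test of the difference itself, for Rab10 (1.468), Rab2a (1.44), Rab6b (1.408) and Rab32 (-1.298).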

How the results depend on the processing

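Of 68 Rab probes, 36 were called in adult occipital, 39 in adult frontal, 16 in fetal occipital and 27 in fetal frontal cortex. With the brightness trend removed these counts were 11, 11, 12 and 3, and with the position trend removed too 9, 12, 4 and 5. The Rab medians moved to 0.086, 0.119 and -0.048 with brightness removed in adult occipital, adult frontal and fetal frontal cortex, and to 0.144, 0.159 and 0.0091 with both. In fetal occipital cortex the count was 26 after quantile normalization, 9 without replicates 1 and 1b together, 5 from the arrays of that group alone and 7 with the position trend removed, where the median was 0.226. When the sign of fetal frontal replicate 1 was turned, 0 were called in fetal frontal cortex. Leaving out single arrays gave 30 to 35 in adult occipital, 29 to 39 in adult frontal, 10 to 17 in fetal occipital and 16 to 28 in fetal frontal cortex.

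The 4 adult minus fetal differences of occipital cortex became 16 after quantile normalization, 2 with position removed, 1 from the arrays of the comparison alone, 0 with replicate 1 of fetal frontal cortex turned, 0 without fetal occipital replicates 1 and 1b, 0 with both trends removed and 0 to 5 without single arrays. With the replicate number as a block it was 0. The occipital minus frontal difference of fetal cortex had 0 calls, 1 after scaling to equal spread, 2 after quantile normalization and 0 to 1 without single arrays.

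A turn was counted only where the sign changed and the value was called in the main fit or in the alternative. By that rule none turned among 920 values with an array left out. Under other settings 38 did among 2319, for which no cause was tested. Sign changes of values called in neither fit were not counted. With brightness removed, in adult occipital cortex, Rab11a became -0.19, Rab1a -0.23, Rab27a 0.37 and Rab9b -0.014. In adult frontal cortex Rab11a became -0.034, Rab1a -0.42, Rab20 -0.36, Rab25 0.16, Rab27a 0.52, Rab33a -0.66, Rab36 probe 2883 0.37, Rab5a probe 9908 -0.13 and Rab9b -0.79, and in fetal frontal cortex Rab20 became -0.12 and Rab33a -0.068. With both trends removed, in adult occipital cortex, Rab11a became -0.043, Rab1a -0.18, Rab27a 0.27, Rab36 probe 2883 0.042 and Rab9b -0.26. In adult frontal cortex Rab11a became -0.18, Rab1a -0.21, Rab20 -0.29, Rab27a 0.49, Rab33a -0.78, Rab36 probe 2883 0.62 and Rab9b -0.92. In fetal occipital cortex Rab12 probe 22298 became -0.25 and Rab5a probe 8815 0.26, and in fetal frontal cortex Rab11a became -0.26, Rab12 probe 22298 -0.35, Rab20 -0.011 and Rab33a -0.40. Position alone turned Rab5a probe 8815 to 0.22 in fetal occipital cortex, the turned array Rab3a to -0.20 in fetal frontal cortex, and averaging the probes of a gene Rab36 probe 2883 to 0.060 in adult occipital and 0.13 in adult frontal and Rab12 probe 22298 to -0.12 in fetal occipital cortex.

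Over all probes, 10882 were called in adult occipital, 12664 in adult frontal, 5576 in fetal occipital and 8359 in fetal frontal cortex, against 3061, 4812, 4131 and 1914 with brightness removed. Turning fetal frontal replicate 1 left 9 in fetal frontal cortex. The 812 calls of the occipital age difference ranged from 71 with the replicate block to 2701 after quantile normalization, and without adult occipital replicate 3 there was 1.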
